A study of Mus musculus with 4 samples.

Results

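The collagen genes of the mouse heart were followed on 4 Visium sections. They were taken as every gene symbol of the form Col, number, a, number in the deposited gene list, which gave 44 of 21885 genes. Visium records polyadenylated RNA at barcoded spots on a slide, each of which covers several cells, and counts unique molecular identifiers (UMIs), 1 for each captured RNA molecule. One section came from an uninjured heart (control), 1 from a heart taken 3 days post-infarction (3 dpi) and 2 from separate hearts taken after 5 days (5 dpi). All 4 mice, control included, carried the Collagen1a1-GFP reporter, in which green fluorescent protein is placed under Col1a1 regulatory sequence, and were 8 to 12 weeks old. Infarction was by permanent ligation of the left anterior descending coronary artery, which leaves the rest of the ventricle perfused. The control and 3 dpi animals were labelled female. Of the 5 dpi hearts 1 was labelled female (here 5 dpi F) and 1 male (5 dpi M), but 4 Y-linked genes gave 704 UMIs in 5 dpi F and 1 UMI in 5 dpi M, so F and M stand only for the labels.

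Most collagens are secreted proteins of 3 chains wound into a triple helix, and their genes are named by type and chain. The fibrillar types I, III and V polymerise into the tension-bearing fibres of a scar. Type IV forms the sheet-like network of the basement membranes around cardiomyocytes and capillaries, type VI forms beaded microfilaments, and the fibril-associated (FACIT) collagens coat fibrils. In the heart most fibrillar collagen RNA is made by fibroblasts, while type IV chains are also made by endothelial and mural cells.

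Sequence before the annotated start was read for the genes the results turn on, from the RefSeq promoter table of GRCm38.p6, which held windows for 35 of the 44 genes. The 250 bases upstream of Col1a2 and Col3a1, which had the most UMIs of the family over the 4 sections, and of Col11a1, the fibrillar gene with the steepest fitted gradient, are shown 5′ to 3′ on the plus strand, on which all 3 genes lie. They span chr6:4505368-4505617 for Col1a2, chr1:45311288-45311537 for Col3a1 and chr3:114030290-114030539 for Col11a1. Capitals mark a match to CCAAT or TATAAA on either strand.
Col1a2: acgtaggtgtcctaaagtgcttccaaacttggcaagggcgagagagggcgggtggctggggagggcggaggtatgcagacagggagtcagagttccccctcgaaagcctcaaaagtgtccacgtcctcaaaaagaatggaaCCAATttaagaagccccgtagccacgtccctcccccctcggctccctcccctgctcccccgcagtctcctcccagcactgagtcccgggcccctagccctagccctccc
Col3a1: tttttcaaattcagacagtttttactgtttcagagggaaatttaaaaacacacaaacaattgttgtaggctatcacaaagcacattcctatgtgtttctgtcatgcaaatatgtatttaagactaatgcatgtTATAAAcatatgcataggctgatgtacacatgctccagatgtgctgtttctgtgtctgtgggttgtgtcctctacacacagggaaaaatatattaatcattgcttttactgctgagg
Col11a1: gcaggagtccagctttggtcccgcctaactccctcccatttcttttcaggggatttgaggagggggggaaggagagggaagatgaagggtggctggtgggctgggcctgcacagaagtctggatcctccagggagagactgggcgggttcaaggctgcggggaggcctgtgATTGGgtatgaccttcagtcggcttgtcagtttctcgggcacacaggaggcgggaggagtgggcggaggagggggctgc
With -1 as the last base before the start, the match began at -109 in Col1a2 (CCAAT), at -117 in Col3a1 (TATAAA) and at -79 in Col11a1, where CCAAT was on the minus strand. CCAAT was found in 13 of 38 collagen windows (34.2%) and in 33.8% of the 32851 windows of the table, and TATAAA in 5 of 38 (13.2%) and in 12.4%, so the shares were close to those of all windows.

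Several members lie side by side in the genome: 8 pairs of collagen genes had no protein-coding gene starting between them, among them Col4a1 with Col4a2, Col3a1 with Col5a2 and Col6a1 with Col6a2. Col4a1 and Col4a2, the main chains of type IV collagen, run away from each other on opposite strands of chromosome 8, and their annotated starts overlap, so that the stretch chr8:11312805-11312826 opens both transcripts. It is shown on the plus strand, that of Col4a2, because the levels of both genes are compared later.
Col4a1 and Col4a2 shared start: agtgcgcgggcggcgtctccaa

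Tissue spots below 500 UMIs or 250 genes, or above 50% mitochondrial UMIs, were left out. This gave 1146, 1741, 1535 and 1423 spots and 3742105, 8374573, 9540940 and 8314946 non-mitochondrial UMIs in the control, 3 dpi, 5 dpi F and 5 dpi M sections. Levels are given as UMIs per 1000000 non-mitochondrial UMIs (CPM), in that order of sections. A single UMI was worth between 0.105 and 0.267 CPM. UMIs were read near the 3′ end and were not scaled to gene length. With 1 section each, the control and 3 dpi have no replicate, so differences between sections are given as values with no test. Intervals in brackets are 95% and cover counting error only.

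The collagen genes together took 0.157% of non-mitochondrial UMIs in control tissue, against 1.18% at 3 dpi and 2.37% and 1.67% in the later hearts. This corresponds to summed levels of 1568, 11759.9, 23693 and 16682 CPM, so that all infarcted sections lay far above the control and both 5 dpi sections above 3 dpi. The infarcted sections held different amounts of muscle: the summed level of 12 cardiomyocyte genes was 101295, 45259, 19812 and 37059 CPM over the 4 sections, the reverse of the order of the collagen sum. A spot mixes cells, so more cells of a type and more RNA per cell cannot be told apart in any of these values, and the part of the muscle share in the differences between whole sections was not tested.

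Of the 44 genes, 21 reached 20 CPM in at least 1 section, 4 reached between 5 and 20 CPM (Col2a1, Col6a6, Col7a1 and Col9a2), 18 stayed above 0 but below 5 CPM, and Col19a1 had 0 UMIs in all 4 sections. By a rule of size, a gene was counted as higher when every infarcted section was at least 2-fold above the control. Of the 21 genes at 20 CPM or more, 20 were higher and 0 were lower, where 24.7% of all 6924 genes at that level were higher and 6.08% were lower. Of the 20, 12 were at 20 CPM or more in the control, while 8 were below it there and entered the count only through the infarcted sections. The exception was Col4a5, a type IV chain, with 19.0, 21.4, 28.5 and 23.4 CPM. The control was the lowest section for all 21, and both 5 dpi sections were above 3 dpi for 18 of them, all but Col5a3, Col6a3 and Col15a1. The share of all genes with either order of sections is not given here, so these counts have no background.

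**Figure D1:**
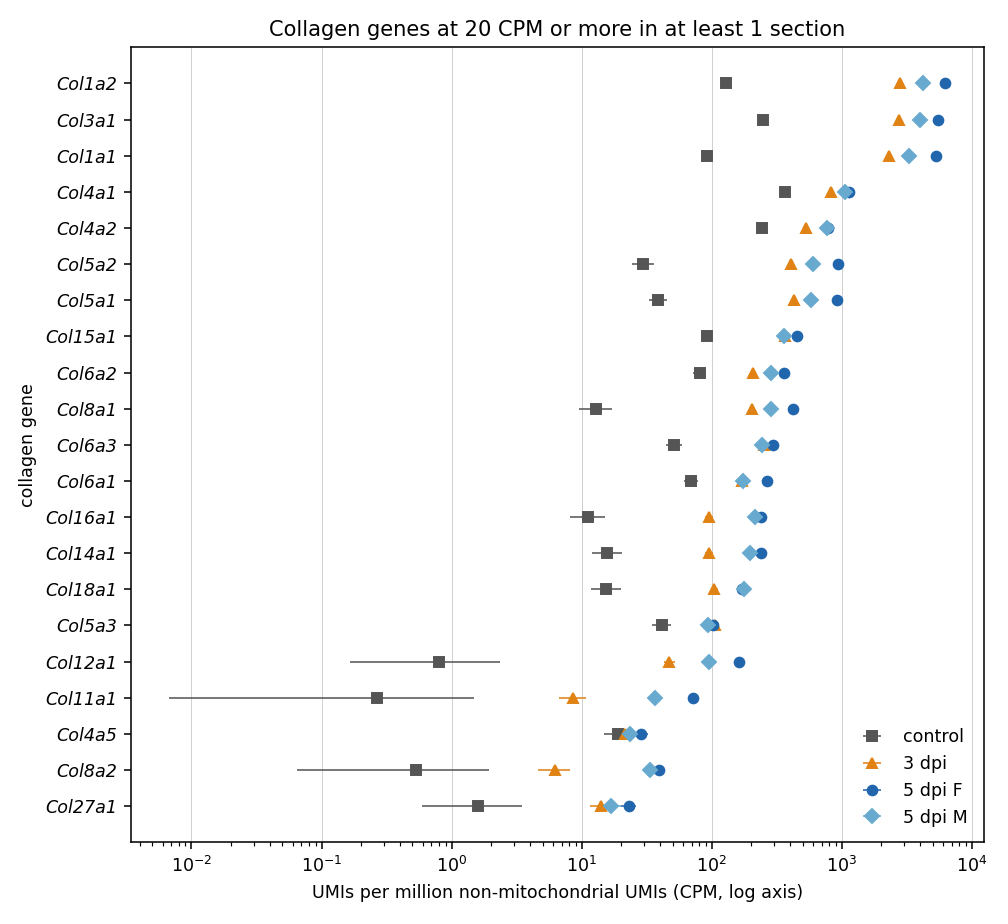
Level of the 21 collagen genes that reached 20 CPM in at least 1 section, on a log axis of UMIs per 1000000 non-mitochondrial UMIs. Each point is 1 section, bars are 95% exact Poisson intervals (counting error only), and the control square is the lowest point of every gene, closest to the other sections for Col4a5.

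The type I chains stood far above the control in all infarcted sections. Col1a1, which encodes the chain present in 2 copies of type I collagen, was at 91.4, 2299, 5329.8 and 3272 CPM. Col1a2, its partner chain, was at 128, 2783, 6161 and 4181 CPM. The control lay 25.2-fold (Col1a1) and 21.7-fold (Col1a2) below the nearest infarcted section.

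Col3a1, the chain of type III collagen, was at 247, 2768, 5519 and 3954 CPM, 11.2-fold higher in the nearest infarcted section than in the control. Col5a1 was at 38.7, 425, 912 and 582 CPM. Col5a2 was at 29.7, 408, 928 and 597 CPM. These 2 genes make type V collagen, which takes part in starting fibrils, and their nearest infarcted sections were 10.97-fold and 13.8-fold above the control. The third chain, Col5a3, had a smaller difference, with 41.2, 104.96, 103 and 93.4 CPM.

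Col12a1, a FACIT collagen, was nearly absent from the control, with 3 UMIs (0.802 CPM), against 47.3, 161 and 95.2 CPM after infarction. At 3 dpi this was 59.0 times the control, with a counting interval of 20.04 to 287. Col14a1, a FACIT collagen of the same kind, was at 15.8, 95.8, 240.1 and 197 CPM. Col16a1, also of the FACIT class, was at 11.2, 95.9, 237 and 213 CPM. For these 3 genes both 5 dpi sections were well above the 3 dpi section.

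Col11a1, a fibrillar chain best known from cartilage, had 1 UMI in the control (0.267 CPM) and stood at 8.60, 71.1 and 36.6 CPM after infarction. The 3 dpi level was 32.2 times that of the control, with a counting interval of 5.59 to 1288. Col27a1, another fibrillar chain of cartilage, was at 1.60, 14.1, 23.1 and 16.8 CPM. Neither gene's control value overlapped the infarcted sections.

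The type VIII chains form the hexagonal networks known from vessel walls and the eye. Col8a1 was at 12.8, 205, 419 and 285 CPM, 16.0-fold higher in the nearest infarcted section than in the control. Col8a2 had 2 UMIs in the control (0.534 CPM) and was at 6.21, 39.5 and 33.3 CPM after infarction. The ratio of Col8a1 to Col8a2 UMIs was 33.1 at 3 dpi (interval 25.1 to 44.5), 10.6 (9.55 to 11.8) and 8.57 (7.56 to 9.74) at 5 dpi, so that the 3 dpi section was above both 5 dpi sections beyond counting error.

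The type IV chains Col4a1 and Col4a2 differed less from the control than the type I chains. Col4a1 was at 362, 825, 1128 and 1048 CPM. Col4a2 was at 244, 534, 787 and 766 CPM. Both were a little over 2-fold higher in the nearest infarcted section, at 2.28-fold and 2.19-fold, which makes them the members just inside the rule together with Col5a3 at 2.27-fold.

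The type VI chains Col6a1, Col6a2 and Col6a3 assemble into 1 protein. Col6a1 was at 69.2, 170.0, 267 and 174 CPM. Col6a2 was at 81.0, 208, 359 and 286 CPM. Col6a3 was at 51.0, 251, 296 and 244 CPM, so that its nearest infarcted section was 4.78-fold above the control, against 2.46-fold for Col6a1 and 2.57-fold for Col6a2.

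The multiplexins Col15a1 and Col18a1 are basement membrane collagens that carry sugar chains. Col15a1 was at 91.4, 365, 453 and 358 CPM. Col18a1, the source of endostatin, was at 15.5, 104.8, 171 and 177 CPM. The nearest infarcted section was 3.92-fold and 6.76-fold above the control, respectively.

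The make-up of the family also differed. In the control 40.3% of all collagen UMIs were type IV and 36.9% fibrillar. The fibrillar share was 74.9% at 3 dpi, 80.5% and 76.4% at 5 dpi, and the type IV share was 11.8%, 8.23% and 11.1%. Col1a1, Col1a2 and Col3a1 alone made up 29.7%, 66.7%, 71.8% and 68.4% of the collagen UMIs. The 3 infarcted sections thus lay close to each other and apart from the control.

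**Figure D2:**
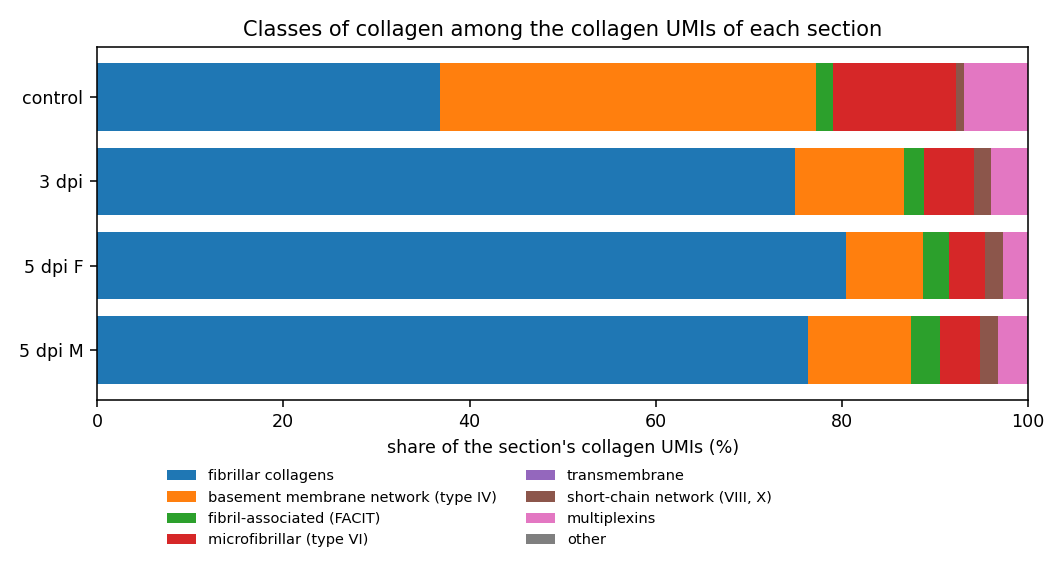
Share of each collagen class (percent, horizontal axis) among the collagen UMIs of each section, 1 bar per section. Fibrillar collagens fill 36.9% of the control bar and between 74.9% and 80.5% of the infarcted bars, and type IV is the widest segment of the control but 11.8% or less elsewhere.

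Of the 23 members below 20 CPM in every section, 4 had their highest value in the control (Col4a3, Col4a4, Col6a6 and Col25a1), and were picked out after their values were seen. Col6a6, a type VI chain, was at 5.08, 2.63, 0.210 and 0.962 CPM, from 19, 22, 2 and 8 UMIs, and the control's counting interval (3.06 to 7.93) overlapped that of 3 dpi (1.65 to 3.98) but not those of the 5 dpi sections. Col4a4, a type IV chain of specialised basement membranes, was at 4.54, 1.79, 1.68 and 2.41 CPM, from 15 to 20 UMIs in each section, and the control's interval (2.65 to 7.27) overlapped those of all 3 infarcted sections. Col4a3 (1.07, 0.358, 0.314 and 0.962 CPM) and Col25a1 (0.267, 0, 0 and 0.120 CPM) had 8 UMIs or fewer in every section.

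Col2a1, the main collagen of cartilage, had 0 UMIs in the control and at 3 dpi, with upper limits of the counting interval at 0.986 and 0.440 CPM. It had 97 UMIs (10.2 CPM) and 54 UMIs (6.49 CPM) in the 5 dpi sections, both above those limits. Of 7 cartilage markers, Hapln1 and Matn1 were at 0 in all sections, and the summed level of the 7 was 8.55, 26.6, 165 and 161 CPM, with Comp at 3.21, 5.97, 117 and 130.5 CPM and Sox9, above Comp in the control and at 3 dpi, at 3.74, 18.7, 23.1 and 20.3 CPM. Acan, the cartilage proteoglycan, had no control UMI and was at 1.43, 24.7 and 10.5 CPM after infarction. Chad (0.534 CPM from 2 UMIs, then 0 UMIs in the other sections) and Cnmd (1.07, 0.478, 0.210 and 0.120 CPM) had their highest values in the control. The part of any cartilage-like cell in the Col2a1 values was not tested.

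To place the collagens within the tissue, the spots of each section were ordered by the share of the 12 cardiomyocyte genes in their non-mitochondrial UMIs and divided into 5 equal groups, from quintile 1 (least cardiomyocyte RNA) to quintile 5 (most). The median share ran from 0.744% to 10.5% at 3 dpi, from 0.0273% to 8.20% and from 0.0731% to 9.29% at 5 dpi, but only from 9.02% to 11.4% in the control. A given quintile did not hold the same share in every section: the median share of quintile 3 was 5.03% at 3 dpi, 0.662% in 5 dpi F and 4.96% in 5 dpi M. The share of mitochondrial UMIs moved with the order, from 3.48% to 40.8% at 3 dpi. UMIs were summed per quintile, and the resulting 15 sums from infarcted hearts were compared with edgeR's quasi-likelihood test, with the section as a block and Benjamini-Hochberg adjustment over all 10997 genes tested. Of the 44 collagen genes, 24 passed the filter on low counts, and a gene could pass it through the quintiles where it was high, so counts over these 24 do not speak for the others.

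In quintile 1 against quintile 5, 16 collagen genes rose and 0 fell, while 27.6% of all genes tested rose and 26.2% fell. That background depends on the scaling: under plain CPM 19 collagen genes rose, with 48.0% of all genes rising and 16.7% falling, and with the cardiomyocyte markers out of the denominator 18 rose, with 42.2% and 18.6%. All 9 fibrillar genes tested, of 11 in the class, rose, as did 3 of 4 FACIT genes, Col6a3, Col8a1, Col18a1 and Col7a1, while 0 of 3 type IV genes passed the threshold. The median log2 fold change of the 24 was 1.98, against 0.09 for all genes tested. By the mean of its factors, the scaling of the fit (TMM) shifted log2 fold changes of this comparison by 0.52 below those of plain CPM. The shifts were 0.34 and 0.19 for quintile 3 against 5 and 1 against 3, also downwards. The gap of a single gene can differ from these means. Leaving out 1 section in turn left between 13 and 18 collagen genes higher and 0 lower, and the shares of all genes in those fits are not given here.

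Col1a1 was at 3498 CPM in quintile 1 and 327 in quintile 5 at 3 dpi, at 7440.3 and 1020.0 in 5 dpi F, and at 5566 and 199.7 in 5 dpi M. The quintiles did not overlap, and the log2 fold change was 3.17 ± 0.40 (SE; edgeR adjusted p = 3.05e-05). Col1a2 followed it, at 4287 and 403, 8571 and 1049, and 6811 and 317 CPM, with a log2 fold change of 3.11 ± 0.35 (edgeR adjusted p = 6.04e-06).

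Col3a1 was at 3764 and 568 CPM in the 3 dpi heart, at 6715 and 1513 CPM in 5 dpi F and at 6122 and 616 CPM in 5 dpi M. Its quintiles were also apart in 3 of 3 sections, with a smaller log2 fold change of 2.22 ± 0.25 (edgeR adjusted p = 2.49e-06). In the control, where the order spans little, Col3a1 went from 336 to 180.4 CPM between the same quintiles, and Col1a1 from 112 to 75.6 CPM.

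Col11a1 had the steepest fitted gradient of the genes with UMIs in quintile 5. It was at 15.8 and 0 CPM at 3 dpi, 119 and 3.22 CPM in 5 dpi F, and 65.8 and 1.69 CPM in 5 dpi M. The log2 fold change was 4.90 ± 0.51 (edgeR adjusted p = 1.41e-06). Col7a1, which forms the anchoring fibrils of skin, had 92 UMIs in quintile 1 over the 3 sections (13, 44 and 35) and 0 in quintile 5. Against a floor of 3 UMIs over the group this is at least 16.4-fold higher.

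Col2a1, which had 0 UMIs in every quintile at 3 dpi, had at 5 dpi 25 and 14 UMIs in quintile 1 and 2 and 0 in quintile 5, with a log2 fold change of 2.87 ± 0.96 (edgeR adjusted p = 0.023). It peaked in quintile 3 of 5 dpi F (20.4 CPM) and in quintile 2 of 5 dpi M (13.9 CPM). Its call did not hold without either 5 dpi section, with adjusted p = 0.051 without 5 dpi F and 0.082 without 5 dpi M.

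Among the genes that rose, the smallest changes were those of Col5a3 (log2 fold change 0.81 ± 0.26, edgeR adjusted p = 0.0175), Col8a1 (0.95 ± 0.27, 0.00883), Col6a3 (1.38 ± 0.22, 5.49e-05), Col27a1 (1.95 ± 0.44, 0.00151) and Col14a1 (2.01 ± 0.34, 0.000233). Col5a3 was at 139 and 45.4, 119 and 82.9, and 135 and 32.1 CPM in quintiles 1 and 5 of the 3 sections. Col8a1 was at 209 and 52.7, 329 and 227, and 297 and 72.8 CPM. Both were higher in quintile 1 in 3 of 3 sections, but neither passed the threshold without the 3 dpi section (adjusted p = 0.138 and 0.145) or without 5 dpi M (0.225 and 0.103).

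Col6a3 was at 266 and 63.6, 319 and 123, and 298 and 58.4 CPM in quintiles 1 and 5. Col27a1 was at 21.5 and 5.45, 29.1 and 8.04, and 26.8 and 0.846 CPM. Col14a1 was at 129 and 29.1, 225 and 63.5, and 284 and 23.7 CPM. The 3 genes were higher in quintile 1 in every infarcted section.

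**Figure D3:**
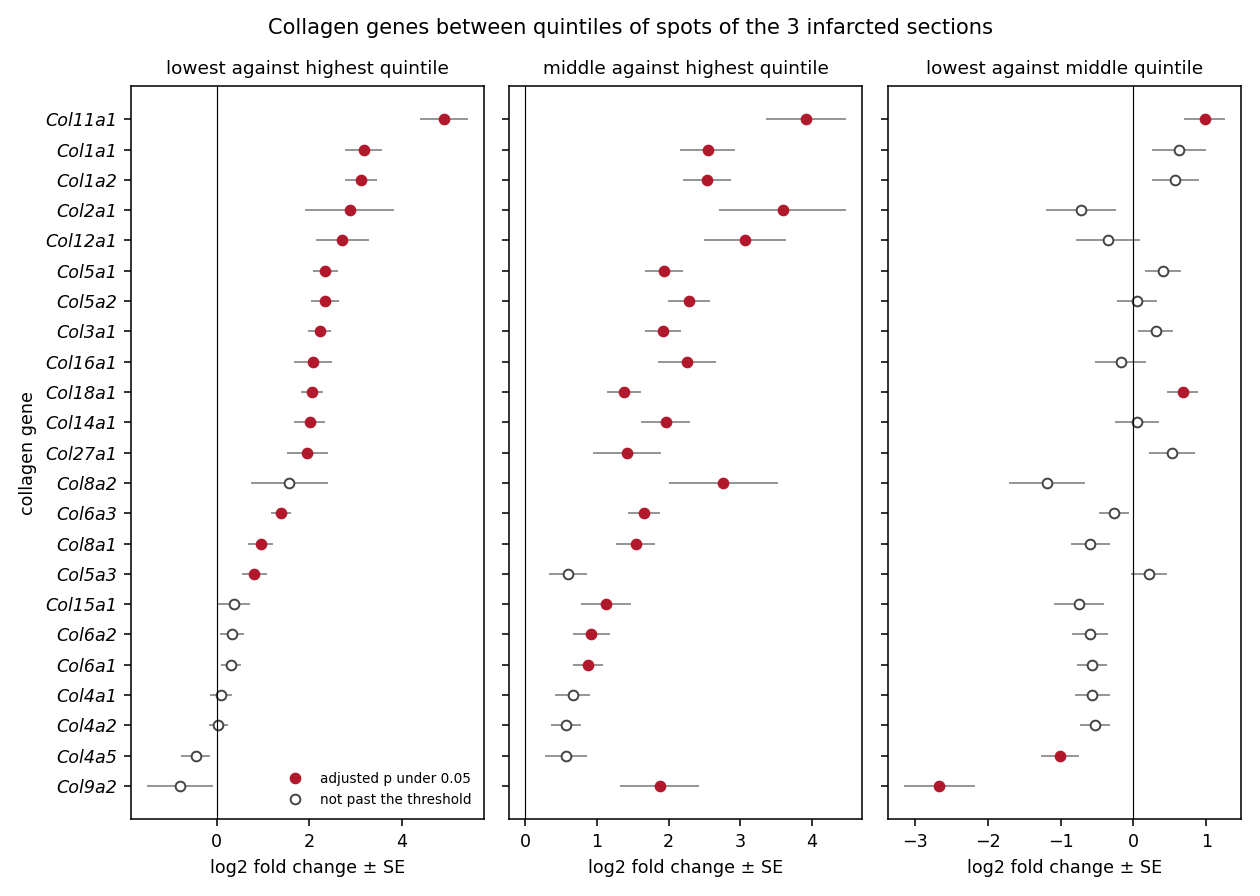
Log2 fold change ± SE (horizontal axis) of 23 of the 24 collagen genes tested, between quintiles of spots in the 3 infarcted sections. Filled points passed an edgeR adjusted p of 0.05. Most fibrillar genes sit in the upper part, with Col11a1 at 4.90, and Col4a1, Col4a2 and Col4a5 sit near 0 in the first panel; Col7a1, with 0 UMIs in quintile 5, is left out.

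The type IV chains and 2 of 3 type VI chains did not pass the threshold in this comparison. Col4a1 was at 860.3 CPM in quintile 1 and 371 in quintile 5 at 3 dpi, and in the 5 dpi hearts at 833 and 1003 (F) and at 1010.5 and 511 (M), so its direction was not shared by the sections. Its log2 fold change was 0.10 ± 0.24 (edgeR adjusted p = 0.76), and that of Col4a2 was 0.04 ± 0.21 (0.888). The direction of both turned without the 3 dpi section, without 5 dpi M and with 3 groups of spots in place of 5, and Col4a2 also with another scaling. Col6a1 (0.31 ± 0.21, 0.231) and Col6a2 (0.33 ± 0.25, 0.289) did not pass the threshold in the main scaling but did under plain CPM, at 0.83 (adjusted p = 0.00745) and 0.85 (0.0205), as did Col4a2, at 0.56 (0.0436). Without 5 dpi F, Col4a1 (0.50, adjusted p = 0.0473), Col6a2 (0.67, 0.0346) and Col15a1 (0.92, 0.00157) passed it too.

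Between quintile 3 and quintile 5, 20 collagen genes rose and 0 fell, where 12.8% of all genes tested rose and 14.7% fell. Under plain CPM 24 rose, with 27.0% of all genes rising and 8.31% falling, and without the cardiomyocyte markers 23 rose, with 21.5% and 9.72%. This comparison shares quintile 5 with the one before it. The 20 included Col6a1 (log2 fold change 0.88 ± 0.21, edgeR adjusted p = 0.00648), Col6a2 (0.92 ± 0.25, 0.0136), Col15a1 (1.13 ± 0.35, 0.0316) and Col8a2 (2.77 ± 0.76, 0.0208). The 4 that did not pass were Col4a1 (0.66 ± 0.24, 0.0513), Col4a2 (0.57 ± 0.21, 0.0525), Col4a5 (0.57 ± 0.30, 0.165) and Col5a3 (0.60 ± 0.27, 0.111). Without the section as a block, 9 collagen genes rose, and the share of all genes in that fit is not given here. Without the 3 dpi section Col6a1 (adjusted p = 0.0798), Col6a2 (0.145) and Col15a1 (0.124) did not pass the threshold, nor did Col15a1 without 5 dpi M (0.272).

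Of the 24 genes tested, 11 were highest in quintile 1 at 3 dpi, 6 in 5 dpi F and 3 in 5 dpi M, against 11 in the control. In 5 dpi M, 18 were highest in quintile 2, and in 5 dpi F, 2, 7 and 9 were highest in quintiles 2, 3 and 4. At 3 dpi and in 5 dpi M 0 were highest in quintile 4. Peaks were not tested, and the share of all genes with a peak in each quintile is not given here. Some peaks lay within counting error, as for Col1a1 in 5 dpi M, at 5575 CPM in quintile 2 and 5566 CPM in quintile 1. Col4a1 peaked in quintile 2 at 3 dpi (1035 CPM), in quintile 4 of 5 dpi F (1570.2 CPM) and in quintile 3 of 5 dpi M (1339 CPM). Col15a1 peaked in the same sections in quintile 2 (529 CPM), quintile 4 (671 CPM) and quintile 2 (486 CPM). Col8a1 and Col12a1 peaked in quintile 2, 3 and 2.

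Quintile 1 against quintile 3, both low in muscle in 5 dpi F, separated 4 of the 24 collagen genes tested. Col11a1 (log2 fold change 0.98 ± 0.28, edgeR adjusted p = 0.0188) and Col18a1 (0.68 ± 0.21, 0.0277) rose, where 10.8% of all genes tested did. Col4a5 (-1.01 ± 0.26, 0.0104) and Col9a2 (-2.67 ± 0.49, 0.00138) fell, where 14.0% of all genes tested did. Under plain CPM 17.7% of all genes rose and 10.3% fell, and without the cardiomyocyte markers 15.9% and 11.1%, with 2 collagen genes higher and 2 lower under both. Without the 3 dpi section neither Col11a1 (adjusted p = 0.134) nor Col18a1 (0.340) passed the threshold, and Col4a5 did not either (0.0565). Without 5 dpi M, neither Col18a1 (0.180) nor Col4a5 (0.165) did.

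Col9a2, a FACIT chain of cartilage and the eye, had the clearest peak away from the muscle-poor end. It had 4, 5, 13, 9 and 0 UMIs in quintiles 1 to 5 at 3 dpi, 8, 18, 41, 44 and 12 in 5 dpi F, and 8, 37, 43, 14 and 2 in 5 dpi M. The lowest level was in an end quintile and the highest in quintile 3 or 4 in 3 of 3 sections. Col8a2 had a similar shape, with 7, 12, 20, 12 and 1 UMIs at 3 dpi and 48, 75, 130 and 113 and then 11 in 5 dpi F, but 66, 133, 62, 12 and 4 in 5 dpi M.

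**Figure D4:**
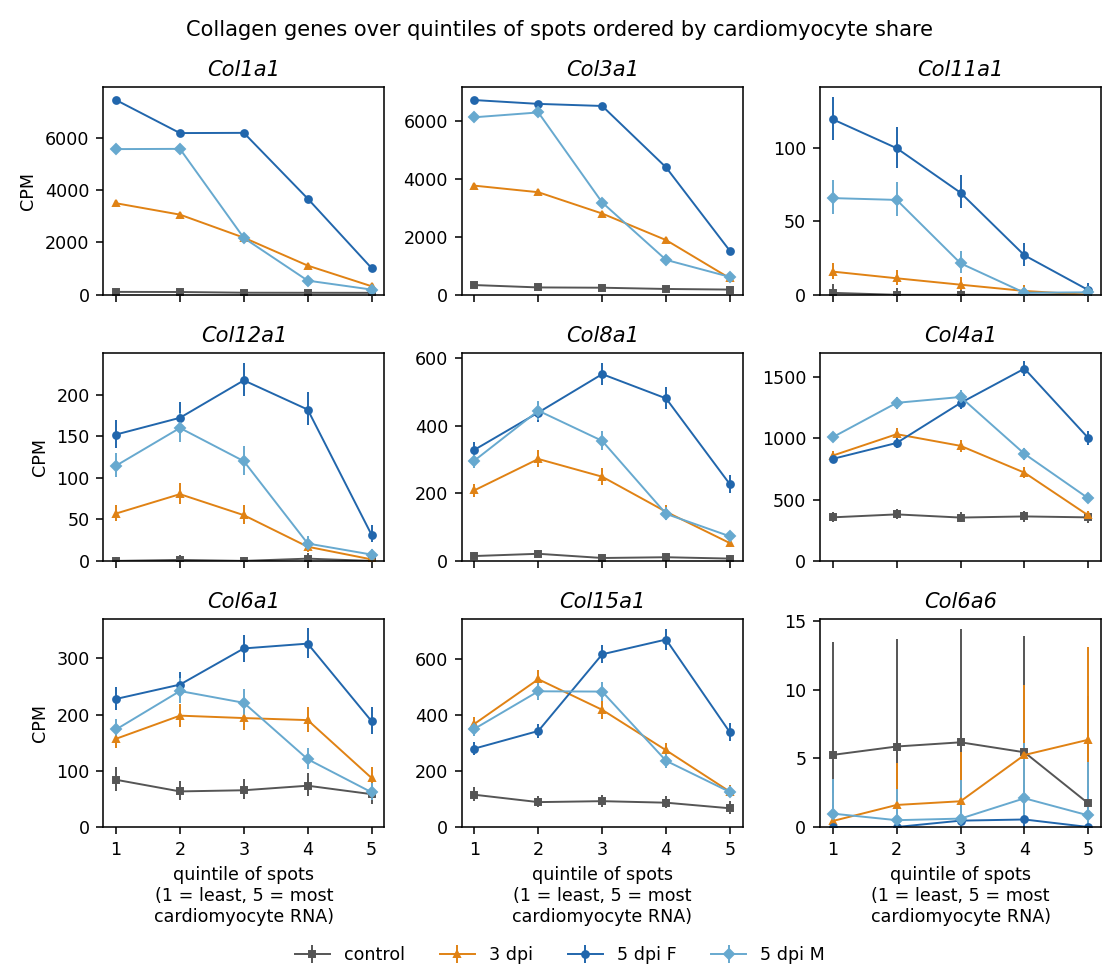
Level (CPM, linear axis from 0) of 9 collagen genes over quintiles of spots from least (1) to most (5) cardiomyocyte RNA, 1 line per section, with 95% exact Poisson intervals. Col1a1, Col3a1 and Col11a1 decline towards quintile 5 in the infarcted sections, Col12a1, Col8a1, Col4a1, Col6a1 and Col15a1 are highest in quintiles 2 to 4, and the control lines stay low on these axes. Col6a6 is the exception, with the control on top in quintiles 1 to 4.

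Quintile 5 of the infarcted hearts, the spots with the most muscle, also carried more collagen RNA than quintile 5 of the control, with a summed level of 2688, 7272 and 2776 CPM against 1366 CPM. Col1a1 was at 75.6 CPM there in the control and at 327, 1020.0 and 199.7 CPM after infarction. Col8a1 was at 6.87 CPM in the control and at 52.7, 227 and 72.8 CPM. Col4a1 was at 356 CPM in the control and at 371, 1003 and 511 CPM, with 3 dpi hardly above the control. Col4a5 was at 30.9 CPM in the control and lower in all 3 infarcted sections, at 12.7, 24.1 and 16.9 CPM. These values came from 18, 14, 30 and 20 UMIs, and the control's counting interval (18.3 to 48.9) overlapped those of all 3 infarcted sections. The median cardiomyocyte share of these spots was 11.4% in the control and 10.5%, 8.20% and 9.29% after infarction, and its part in the values was not tested.

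Within quintile 1, 3 dpi and 5 dpi were compared as values, by the rule that the nearer 5 dpi section is at least 2-fold from 3 dpi. Of 21 collagen genes at 20 CPM or more, 4 were higher at 5 dpi and 0 were lower, where 1.12% of all 7037 genes at that level were higher and 1.89% were lower. Col11a1 and Col8a2, 2 of the 4, were below 20 CPM at 3 dpi and entered the count only through the 5 dpi sections. Col11a1 went from 15.8 to 119 and 65.8 CPM, 4.17-fold in the nearer section. Col8a2 went from 3.07 to 21.1 and 32.2 CPM, 6.89-fold. Col16a1 (117 to 268 and 258 CPM, 2.20-fold) and Col12a1 (57.0 to 152 and 115 CPM, 2.01-fold) were just inside the rule. Col1a1 was outside it, at 3498, 7440.3 and 5566 CPM, and Col15a1 was lower in both 5 dpi sections (369, 281 and 351 CPM). With 1 section at 3 dpi these differences have no replicate check.

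The ratios of paired chains also differed between sections. Ratios compare the 3′ UMIs of a pair of genes and are read here only across sections and quintiles, not as relative amounts of RNA. The ratio of Col1a1 to Col1a2 UMIs was 0.714 in the control (interval 0.620 to 0.822), 0.826 at 3 dpi, and 0.865 (0.855 to 0.875) and 0.783 (0.770 to 0.795) at 5 dpi, so that the 5 dpi sections differed beyond counting error. In quintile 5 it was 0.972 in 5 dpi F (0.899 to 1.05) and 0.629 in 5 dpi M (0.532 to 0.743). The ratio of Col4a1 to Col4a2, the genes with the shared start shown above, was 1.49, 1.55, 1.43 and 1.37, with 3 dpi (1.49 to 1.61) above 5 dpi M (1.32 to 1.41). The ratio of Col6a1 to Col6a2 was 0.855, 0.818, 0.744 and 0.609, lowest in 5 dpi M (0.570 to 0.650).

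The ratio of Col3a1 to Col1a1 moved further than those of the type I, IV and VI pairs. It was 2.70 in the control (interval 2.38 to 3.07), 1.20 at 3 dpi (1.18 to 1.23), and 1.04 and 1.21 at 5 dpi, so that the control lay above all infarcted sections beyond counting error. It was also higher where the muscle share was higher within each infarcted heart. From quintile 1 to quintile 5 it went from 1.08 to 1.74 at 3 dpi, from 0.903 to 1.48 in 5 dpi F and from 1.10 to 3.08 in 5 dpi M, and the counting intervals of the end quintiles did not overlap in 3 of 3 sections. Its mean over the 3 infarcted sections was 1.03 ± 0.11 (SD, n = 3) in quintile 1 and 2.10 ± 0.86 in quintile 5.

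The GFP reporter gives a second readout of Col1a1 regulatory sequence. EGFP was at 688, 1923, 6389 and 6509 CPM, so the control was lowest and the 5 dpi sections, unlike for Col1a1 itself, were nearly equal. The ratio of EGFP to Col1a1 UMIs was 7.53 in the control (interval 6.72 to 8.45) against 0.836 (0.819 to 0.854), 1.20 and 1.99 after infarction. In 5 dpi M it was 1.79 in quintile 1 and 9.32 in quintile 5 (8.15 to 10.7), which overlaps the interval of the control's quintile 5 (6.32, 4.58 to 8.89). In quintile 5 it was below that interval at 3 dpi (interval 1.76 to 2.27) and in 5 dpi F (ratio 1.87). The reporter and the gene thus differed in scale between hearts, and the number of reporter copies per animal is not given in the sources used here.

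**Figure D5:**
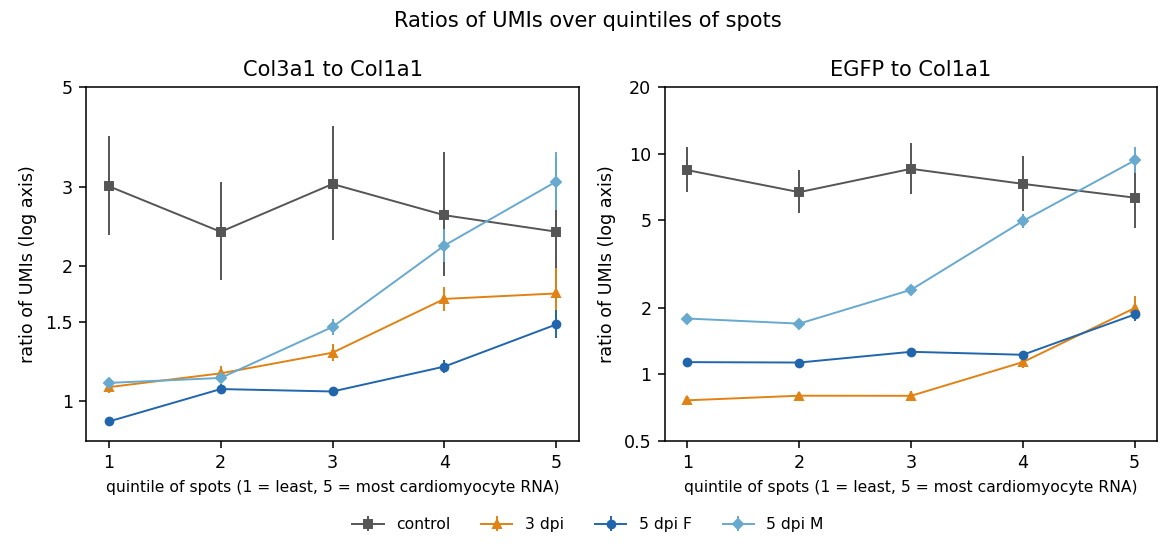
Ratio of Col3a1 to Col1a1 UMIs (left) and of EGFP to Col1a1 UMIs (right), on log axes, over quintiles of spots from least to most cardiomyocyte RNA, 1 line per section with 95% exact intervals (counting error only). Both ratios are lowest in quintile 1 or 2 of each infarcted section and highest in its quintile 5, and the control stays between 2.38 and 3.05 on the left and between 6.32 and 8.54 on the right.

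Genes that make and process collagen were counted between quintile 1 and quintile 5, where 27.6% of all genes tested rose and 26.2% fell (48.0% and 16.7% under plain CPM). Of 17 genes for modification and folding of the chains, 12 rose and 2 fell. P4ha3, a prolyl hydroxylase subunit, had a log2 fold change of 2.98 ± 0.48 (edgeR adjusted p = 0.000166). Fkbp10, a collagen chaperone, had one of 2.43 ± 0.27 (2.12e-06). Colgalt2 (-1.65 ± 0.49, 0.00963) and P3h2 (-1.13 ± 0.46, 0.0459) fell, both at under 12 CPM in either quintile. P3h2 was lower in 2 of 3 sections but higher in quintile 1 of 5 dpi M (6.82 against 4.23 CPM).

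Of 17 tested genes for propeptide cleavage, assembly and cross-linking, 11 rose and 1 fell. Fn1, the fibronectin on which fibrils assemble, led with 3.73 ± 0.37 (edgeR adjusted p = 2.70e-06). Lox, the cross-linking lysyl oxidase, followed with 3.31 ± 0.54 (0.000475) and had been at 0.802 CPM in the control. Tnxb, which binds fibrils, fell (-3.26 ± 0.33, 1.23e-06). Of 8 export genes, 4 rose and 0 fell, with Creb3l1 at 2.50 ± 0.25 (8.39e-07) and Sec24d at 1.19 ± 0.17 (2.18e-05).

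Of 14 tested genes for degradation and uptake, 10 rose and 1 fell. Mmp8, the neutrophil collagenase, had a log2 fold change of 4.58 ± 0.78 (edgeR adjusted p = 0.000120) at low levels, and Timp1, a metalloproteinase inhibitor, one of 3.14 ± 0.40 (2.92e-05). Timp4 fell (-5.05 ± 0.63, 5.73e-06). Of 7 tested collagen receptors, 4 rose and 1 fell. Lair1, an inhibitory receptor of leukocytes, had 2.52 ± 0.43 (0.000213), the fibroblast integrin Itga11 1.79 ± 0.47 (0.00516), and Cd36, abundant on muscle and capillaries, fell (-2.40 ± 0.28, 5.02e-06).

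Markers of other cells moved along the same order of spots, where 27.6% of all genes tested rose and 26.2% fell (48.0% and 16.7% under plain CPM). All 8 macrophage markers rose in quintile 1, and their summed level went from 1221 CPM in quintile 5 to 8924 in quintile 1 at 3 dpi, from 1717 to 11877 in 5 dpi F and from 972 to 12384 in 5 dpi M. All 6 markers of activated fibroblasts outside the collagens, Postn and Cthrc1 among them, rose, with summed levels from 489 to 5099, 2149 to 9850 and 667 to 9356 CPM. Of 7 other fibroblast markers, 1 (Pdgfra) rose and 1 (Gsn) fell, and their summed level over whole sections was 2460 CPM in the control and 1714, 2339 and 2270.1 CPM after infarction. Gsn, named after its values were seen, was at 1632, 461, 412 and 462 CPM, and the other 6 summed to 828, 1253, 1927 and 1808 CPM. Of 7 endothelial markers 5 fell and 0 rose, and of 6 mural markers 4 fell and 1 (Myh11) rose. Of 4 tested neutrophil markers 3 rose and 0 fell, and of 4 tested erythroid markers 4 fell. Of 5 tested mesothelial markers 3 rose, and all 6 on the list summed to 11.8, 123 and 17.1 CPM in quintile 1 at 3 dpi, in 5 dpi F and in 5 dpi M. The 4 adipocyte markers summed to 81.5 CPM in quintile 1 of 5 dpi F and to 0 in quintile 1 of the other infarcted sections. Of the 81.5 CPM, Cfd alone made up 72.3 CPM, and Plin1 had 0 UMIs in all sections. The part of these cells in the collagen values was not tested.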

How the data were processed

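Fresh-frozen heart sections from 4 mice were profiled with 10x Genomics Visium. The deposited matrices hold UMI counts by gene and by spot, with no normalization, written by Space Ranger 1.3.1 per the file headers. The reference is given as mm10 in the labels and as an Ensembl-based build with an added GFP sequence in the methods, and the files hold no positions. The authors marked tissue spots by hand. Samples were grouped by their labels.

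CPM was computed over UMIs outside 13 mitochondrially encoded genes. UMI sums of 5 quintiles per infarcted section were tested in R 4.3.3 with the quasi-likelihood test of edgeR 4.0.16 after TMM scaling and filterByExpr, blocking on section, with Benjamini-Hochberg adjustment (threshold 0.05). The 3 hearts, not spots, are the replicates, and they mix 3 dpi with 5 dpi. The p-values rest on the spread of the 15 sums that is left after section and quintile are fitted. They do not measure differences in level between the hearts, which the section block takes out. Alternatives were DESeq2 1.42.0, other scalings, denominators, divisions of spots and filters, and leaving out each section.

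The collagen, pathway and marker lists and the tests were chosen with earlier results of these data known. Values in full are given for collagen genes with a mean of at least 50 CPM, for the 5 highest and 5 lowest fold changes past the threshold, and for those at least 2-fold from the control in every infarcted section with 20 CPM in 1 section. From each other list the 2 highest and 2 lowest past the threshold may be named. Promoter windows are from RefSeq, GRCm38.p6. Protein sequences were not used here.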

Additional observations from a re-analysis of the deposited data

Results flagged for a closer look

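The matrix of 5 dpi M holds 623 spots that are not marked as tissue and entered no comparison. Their UMIs gave a summed collagen level of 20168 CPM, above the 1568 CPM of the control and the 16682 CPM of the tissue spots of the same section. Col3a1 was at 5061 CPM against 3954 CPM in those tissue spots. Other members were lower than there, such as Col4a1 at 850 against 1048 CPM and Col16a1 at 144 against 213 CPM. The unmarked spots have no counterpart in the other sections.

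Col4a5 had a log2 ratio of CPM between quintile 1 and quintile 5 of 0.53 at 3 dpi, and of -0.05 and -0.26 at 5 dpi. Col12a1 had a log2 ratio between quintile 1 and quintile 3 of 0.051 at 3 dpi, and of -0.51 and -0.07 at 5 dpi. In both cases the 3 dpi section lay on one side of 0 and both 5 dpi sections on the other. The counting intervals of the quintiles compared overlapped in every infarcted section for Col4a5. For Col12a1 they overlapped in all but 5 dpi F, where quintile 1 was at 152 CPM and quintile 3 at 217 CPM. The difference between time points was not tested.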

How the results depend on the processing

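Of 129 recomputed summary values, 114 kept their direction and side of the threshold or stayed within their spread. In quintile 1 against 5, 2 collagen genes were lower instead of 0 with no filter on low counts, and 2 when spots under a low limit of the cardiomyocyte share were set against all others. In quintile 3 against 5, 9 were higher with no section block. In quintile 1 against 3, the 2 higher genes became 0 with no section block, 1 with 10 groups of spots and 1 with 3 groups, and between 0 and 2 when leaving out 1 section, while the 2 lower genes became 4 with no filter, 4 with 10 groups, and between 1 and 3 when leaving out 1 section. Within quintile 1, 8 genes were higher at 5 dpi with a fold of 1.5 and 2 with a fold of 3. Shares of all genes under these changed settings are not given here, so the counts have no background. With all UMIs as denominator the log2 ratio of the collagen sum was 3.22 in place of 2.58 (quintile 1 over 5, mean of 3 sections) and 4.19 in place of 3.66 (5 dpi over control), shifts equal to the mean log2 ratio of the non-mitochondrial share, 0.64 and 0.53. The cause of the other changes was not tested.

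Of 623 values of single genes, 553 kept direction and call, and 12 turned direction, none of them past the threshold, all in quintile 1 against 5. Col4a5 turned to 0.061 under plain CPM. Leaving out 1 section, the log2 fold change ran from -1.24 to 1.08 for Col9a2 (turned without 5 dpi F), from -0.17 to 0.50 for Col4a1 and from -0.14 to 0.33 for Col4a2 (both turned without 3 dpi and without 5 dpi M, at -0.04 and -0.09 for the latter). Col4a1 turned to -0.10 with 3 groups and -0.029 with the low limit, and Col4a2 to -0.012 with RLE size factors, -0.013 with DESeq2, -0.12 with 3 groups and -0.044 with the low limit. Depth limits the rarest members, since 3 UMIs correspond to between 0.314 and 0.802 CPM in a section.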
